A study of Mus musculus with 8 samples.

Results

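The sirtuin family of the mouse has 7 genes, Sirt1 to Sirt7, and all 7 were found by symbol among the 18257 genes of the deposited table and passed the filter on low counts. They were measured in polyadenylated RNA of wild-type mouse embryos labelled as morulae. In 4 libraries the embryos had been cultured with 2 µM A485, which blocks the catalytic site of the acetyltransferases p300 and CBP, and in 4 control libraries with 0.1% DMSO. Both cultures started at the 4-cell stage, and the protocol names the blastocyst stage as their end. Each library pooled 3 embryos without zona pellucida, from cDNA that was preamplified before sequencing. The labels state no DMSO amount for the A485 libraries, and the compound was dissolved in DMSO.

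Sirtuins are deacylases that consume NAD+ to take acetyl and other acyl groups off lysines, so they act in the opposite direction to acetyltransferases such as p300 and CBP. SIRT1, SIRT6 and SIRT7 are mainly nuclear, with SIRT7 concentrated in the nucleolus, SIRT2 is mainly cytosolic, and SIRT3, SIRT4 and SIRT5 are mitochondrial. The comparison of A485 with control addresses how the messages of these enzymes changed when embryos developed with p300 and CBP inhibited.

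All 7 genes encode a conserved core that binds NAD+. Its glycine-alanine-glycine signature is shown here as the 45 coding bases that begin at the first of these glycines. The stretch was found in every gene with the same amino acid pattern. The letters come from GENCODE transcripts (GRCm38), and capitals mark the 12 bases that are the same in all 7. That pattern fixes these 12 bases in any match, so their identity follows from the search.
Sirt1: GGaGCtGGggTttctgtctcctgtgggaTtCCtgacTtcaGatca
Sirt2: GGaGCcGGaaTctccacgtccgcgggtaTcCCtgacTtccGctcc
Sirt3: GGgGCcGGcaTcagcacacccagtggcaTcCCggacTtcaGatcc
Sirt4: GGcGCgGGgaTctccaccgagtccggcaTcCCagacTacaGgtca
Sirt5: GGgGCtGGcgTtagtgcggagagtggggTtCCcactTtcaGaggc
Sirt6: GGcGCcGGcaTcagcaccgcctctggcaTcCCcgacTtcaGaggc
Sirt7: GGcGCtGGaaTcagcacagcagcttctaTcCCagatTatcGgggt
Over the 21 pairs, identity in this stretch ran from 18 of 45 bases for Sirt1 with Sirt7 to 37 of 45 for Sirt3 with Sirt6. No pair of members was thus identical in this stretch, and no other part of the genes was compared. The stretch lies in 1 exon in Sirt4 (chr5:115482893-115482937, minus strand) and Sirt5 (chr13:43371888-43371932, plus strand). In each of the other 5 genes an intron divides it between 2 exons.

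Libraries held 23641781 to 25677701 estimated counts. Libraries of the A485 group differed more among themselves, with a median SD over all tested genes of 0.41 in A485 and 0.25 in control on the log2 CPM scale (CPM is the count scaled to a common library size, prior count 2). By the quasi-likelihood test of edgeR (Benjamini-Hochberg adjusted), 54.7% of the 12936 genes tested passed an adjusted p of 0.05, 29.7% higher and 25% lower in A485, so a call for a single gene is common here. Higher genes made up 54.2% of those calls, and 68.2% when libraries were scaled by total counts alone. The median log2 fold change was 0.085 over all tested genes, and 0.37 under that scaling. The labels call each pool a biological replicate but name no litter or culture day, so p-values measure the spread between these pools. Of 16 markers of preimplantation embryos, 14 had at least 1 CPM in every library. Their summed level was 2656 to 4410 CPM in A485 and 3531 to 3940 CPM in control, and 13 of the 16 fell and 2 rose. Markers of cumulus and granulosa cells were under 1 CPM in every library for 9 of 13 genes, with sums of 26.6 to 49.4 CPM in A485 and 26.7 to 47.9 CPM in control. The same held for 6 of 6 sperm, 5 of 7 endothelial and 6 of 8 fibroblast genes. Blood cell genes summed to 117 to 367 CPM in A485 and 10 to 19.2 CPM in control, mostly Hba-a1 (alpha globin), while 6 of the 10, among them Hbb-bs and Ptprc, were under 1 CPM in every library. Oocyte and zygote genes summed to 39.2 to 56.8 CPM in A485 and 54 to 63.4 CPM in control. The part of these genes in the results below was not tested. In pooled embryos, fewer cells of a type and less RNA per cell cannot be told apart.

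The family did not move as a block. Sirt2 rose, Sirt6 fell, and the libraries of the A485 and control groups did not overlap for either gene. Sirt1 and Sirt3 rose with overlapping groups and calls that depended on single libraries. Sirt4, Sirt5 and Sirt7 did not pass the threshold. Thus 4 of 7 members (57.1%) passed, against 54.7% of all genes tested, and the groups did not overlap for 2 of 7 (28.6%), against 51.4% of all genes. The median log2 fold change was 0.28 over the 7 members and 0.085 over all genes tested.

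**Figure D1:**
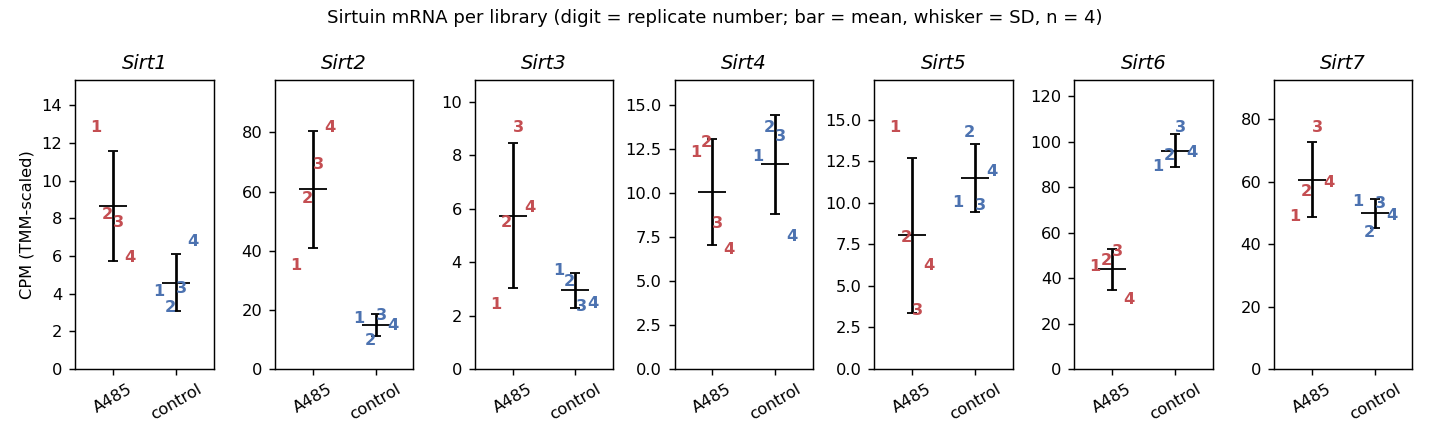
CPM of each sirtuin (y axes, TMM-scaled, starting at 0) in the A485 and control libraries, with digits for the replicate number, the mean as a bar and the SD as a whisker (n = 4 each). Sirt2 lies between 34.9 and 81.5 CPM in A485, above all control libraries, and Sirt6 between 30.7 and 51.7 CPM in A485, below all control libraries.

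Sirt2 encodes the cytosolic deacetylase whose best known substrate is alpha-tubulin, and its log2 fold change was the largest of the 7 members. Its level was 34.9, 57.5, 69.0 and 81.5 CPM in A485 libraries 1 to 4, against 17, 9.61, 18.2 and 14.6 CPM in control libraries 1 to 4. Every A485 library was thus above the highest control library. The means were 60.7 ± 19.8 CPM in A485 and 14.9 ± 3.8 CPM in control (SD, n = 4 each), behind which stood 851 to 2207 counts in A485 and 213 to 436 in control. Sirt2 rose 4.09-fold (95% interval 2.65 to 6.31; log2 fold change 2.03 ± 0.28, SE; edgeR adjusted p = 0.000246). It passed in all 19 alternative fits, with log2 fold changes of 1.64 to 2.33. The authors' deposited table gives a log2 fold change of 2.0 (DESeq2 q = 1.17e-10).

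Sirt6 encodes a chromatin-bound enzyme that removes acetyl and long-chain acyl groups and is known for its part in DNA repair and in the repression of glycolytic genes. It had 45.1, 47.5, 51.7 and 30.7 CPM in A485 libraries 1 to 4, against 88.9, 94.1, 106 and 95 CPM in control libraries 1 to 4. The control libraries lay close together, and A485 library 4 was the lowest of all. Means were 43.7 ± 9.1 CPM in A485 and 96.1 ± 7.4 CPM in control (SD, n = 4 each), from 832 to 1522 counts in A485 and 2020 to 2556 in control. Sirt6 fell to 0.456 of the control level (95% interval 0.351 to 0.592; log2 fold change -1.13 ± 0.17, SE; edgeR adjusted p = 0.000367), and its call held in all 19 alternatives, at -1.24 to -0.84. In the authors' deposited table its log2 fold change is -1.16 (q = 2.78e-08).

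Sirt7, the nucleolar member that promotes transcription by RNA polymerase I, had 48.9, 56.7, 77.2 and 59.7 CPM in A485 libraries 1 to 4, against 53.8, 43.6, 52.9 and 49.2 CPM in control libraries 1 to 4. A485 library 1 lay within the control range, and the other three lay above it. The log2 fold change of 0.28 ± 0.16 (SE, with an edgeR adjusted p of 0.162) has a 95% interval of -0.075 to 0.64, so a rise of up to 1.56-fold is within the error. It passed under total-count scaling (0.58, edgeR adjusted p = 0.028) and without A485 replicates 1 and 2 (0.44, edgeR adjusted p = 0.0341).

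Sirt1, the most studied nuclear member and a deacetylase of p53 and of FOXO factors, had 12.8, 8.18, 7.78 and 5.91 CPM in A485 libraries 1 to 4, against 4.09, 3.25, 4.25 and 6.77 CPM in control libraries 1 to 4. Control library 4 was above A485 library 4, and all other control libraries were below every A485 library. Behind these levels stood 160 to 312 counts in A485 and 72 to 146 in control. The gene rose 1.89-fold (95% interval 1.18 to 3.02; log2 fold change 0.92 ± 0.31, SE; edgeR adjusted p = 0.0263). The call was lost without control replicate 1, 2 or 3 (log2 fold changes 0.85, 0.81 and 0.85; edgeR adjusted p = 0.071, 0.0703 and 0.0767), without A485 replicate 1 (0.66, edgeR adjusted p = 0.0716) and without A485 replicates 1 and 2 (0.56, edgeR adjusted p = 0.158).

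Among the mitochondrial members Sirt3, which encodes the main deacetylase of mitochondrial proteins, had 2.42, 5.48, 9.03 and 6.06 CPM in A485 libraries 1 to 4, against 3.7, 3.29, 2.33 and 2.46 CPM in control libraries 1 to 4. A485 library 1 sat inside the control range and the other three sat above it. The level rested on 59 to 266 counts in A485 and 53 to 84 in control. Sirt3 rose 1.95-fold (95% interval 1.1 to 3.47; log2 fold change 0.97 ± 0.37, SE; edgeR adjusted p = 0.0481), just inside the threshold. It passed in 6 of 18 alternatives, and its log2 fold change was 0.66 (edgeR adjusted p = 0.148) without A485 replicate 3 and 1.21 (edgeR adjusted p = 0.00483) without A485 replicate 1. The call was also lost without any one of the control replicates or A485 replicates 2 and 4.

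Sirt5, whose enzyme removes succinyl, malonyl and glutaryl groups, had 14.5, 7.89, 3.53 and 6.2 CPM in A485 libraries 1 to 4, against 9.99, 14.2, 9.83 and 11.9 CPM in control libraries 1 to 4. A485 library 1 exceeded every control library, whereas A485 libraries 2 to 4 lay below all of them. With all libraries the log2 fold change was -0.52 ± 0.37 (SE; 95% interval -1.33 to 0.3; edgeR adjusted p = 0.256). Without A485 replicate 1 it was -0.97 (edgeR adjusted p = 0.0153), and without A485 replicates 1 and 2 it was -1.26 (edgeR adjusted p = 0.00479), so that library decided whether Sirt5 passed.

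Sirt4, a mitochondrial member with lipoamidase and ADP-ribosyltransferase activity, had 12.3, 12.9, 8.25 and 6.79 CPM in A485 libraries 1 to 4, against 12.1, 13.7, 13.2 and 7.51 CPM in control libraries 1 to 4. The groups covered nearly the same range. Its log2 fold change was -0.2 ± 0.27 (SE; edgeR adjusted p = 0.539), and the 95% interval of -0.8 to 0.39 leaves changes between 0.575-fold and 1.31-fold within the error.

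Variation within the A485 group was itself uneven over the family. The SD of log2 CPM was 0.83 in A485 and 0.25 in control for Sirt5, and 0.78 in A485 and 0.31 in control for Sirt3. For Sirt1 it was 0.46 in A485 and 0.44 in control. A485 libraries 3 and 4 minus A485 libraries 1 and 2 came to 1.0 for Sirt3 and 0.74 for Sirt2 on this log2 scale, and to -1.18 for Sirt5, -0.75 for Sirt4 and -0.59 for Sirt1. A485 library 1 had the lowest Sirt2 and Sirt3 and the highest Sirt1 and Sirt5 of its group. No cause of this was tested.

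**Figure D2:**
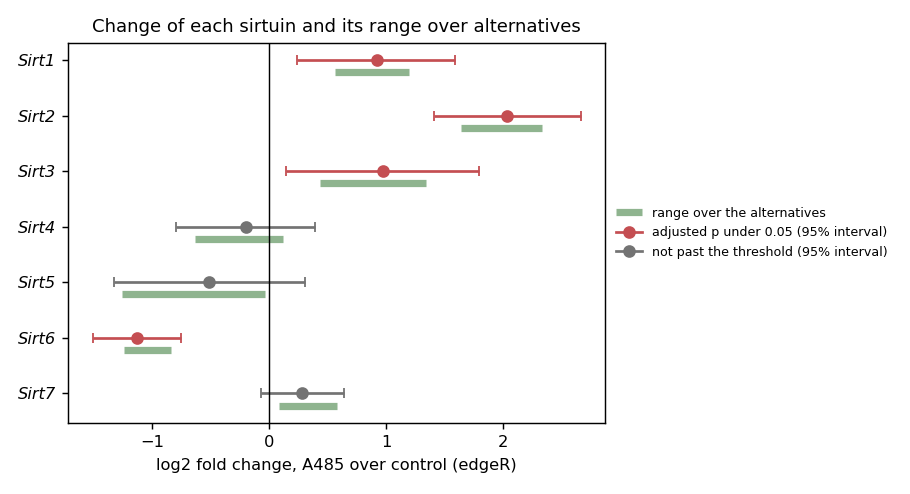
Log2 fold change of A485 over control for each sirtuin (x axis), with the 95% interval in red where the gene passed and grey where it did not, and the range over the alternative fits as a green bar. Sirt2 and Sirt6 lie clear of 0 in every fit, and the range of Sirt4 crosses 0.

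Compared per transcript length, in the authors' TPM (transcripts scaled to a fixed library sum), the order of the members differed between the groups. In A485 the level of Sirt7 was 46.4 ± 13.7, that of Sirt2 43.9 ± 16 and that of Sirt6 35.8 ± 10 TPM (SD, n = 4), and the libraries of neighbours in this order overlapped. In control, Sirt6 stood first at 63.1 ± 7.19 TPM, Sirt7 next at 30.2 ± 3.48 TPM and Sirt2 after it at 8.45 ± 2.27 TPM (SD, n = 4), with no overlap between Sirt6 and Sirt7 or between Sirt7 and Sirt2. Sirt4, Sirt3, Sirt5 and Sirt1 followed in A485 at 7.99, 5.61, 5.14 and 2.76 TPM, each overlapping the next. The order in control was Sirt4, Sirt5, Sirt3 and Sirt1 at 7.48, 6.07, 2.29 and 1.18 TPM. There Sirt2 overlapped with Sirt4 and Sirt4 with Sirt5, while Sirt5 with Sirt3 and Sirt3 with Sirt1 did not. The order was the same in FPKM.

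The balance between the abundant members differed with it. The TPM ratio of Sirt2 to Sirt6 was 0.673, 1.07, 1.18 and 2.32 in A485 libraries 1 to 4, against 0.162, 0.092, 0.147 and 0.132 in control libraries 1 to 4. Sirt2 was below Sirt6 in every control library and in A485 library 1, and above it in A485 libraries 2 to 4. Summed over the family, TPM was 148 ± 33.9 in A485 and 119 ± 11.7 in control (SD, n = 4), with overlapping libraries. TPM has no TMM factors. With total-count scaling the median log2 fold change of all tested genes was 0.37, against 0.085 with TMM. Between groups, TPM levels may thus hold a shift of this kind, and the family sum was not tested. Sirt6 made up 17.2% to 29.5% of that sum in A485 and 49.9% to 54.1% in control, and Sirt2 19.9% to 39.7% in A485 and 4.98% to 8.1% in control. The share of the 3 nuclear members was 49.6% to 62.6% in A485 and 78.4% to 81.5% in control. Their summed TPM overlapped between the groups, with 85.0 ± 21.9 in A485 and 94.5 ± 9.85 in control (SD, n = 4). A share can fall when another member rises, as Sirt2 did. The share of the 3 mitochondrial members was 10.4% to 17.5% in A485 and 11.4% to 16.7% in control. These shares describe message, not protein.

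**Figure D3:**
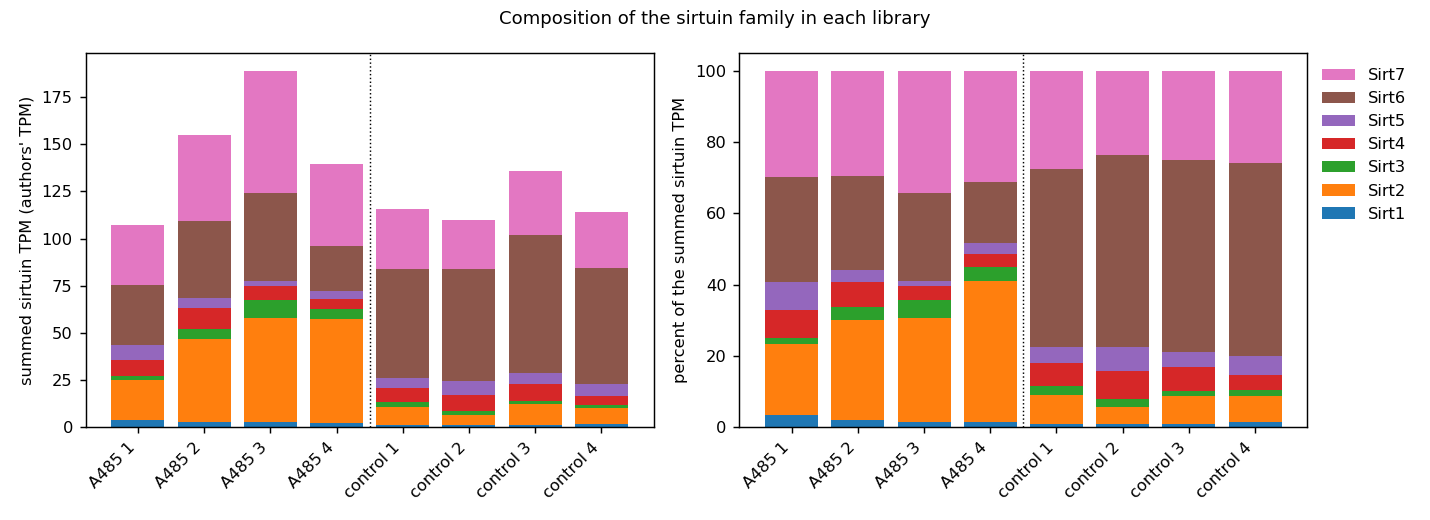
Summed TPM of the 7 sirtuins (left, y axis) and the percent of that sum from each member (right, y axis) in the 4 A485 and 4 control libraries (x axis). TPM is scaled to a fixed library sum, without TMM factors. Sirt6 takes 17.2% to 29.5% of the sum in A485 and 49.9% to 54.1% in control, and Sirt2 takes the larger share in A485.

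Each sirtuin was set beside its nearest genes of the deposited table (positions from the RefSeq gene table, GRCm38.p6), since several share a start region or exon bases with a neighbour. Sirt2 (chr7:28766752-28788665, plus strand) lies 107 bases from Nfkbib, an inhibitor of NF-kappaB on the minus strand, and 208 bases from Rinl. Both neighbours fell while Sirt2 rose. Nfkbib had 81.6 ± 13.2 CPM in A485 and 143 ± 17.4 CPM in control (SD, n = 4 each; log2 fold change -0.81 ± 0.15, SE; edgeR adjusted p = 0.00141), and Rinl had a log2 fold change of -0.95 ± 0.17 (SE, with an edgeR adjusted p of 0.00105). In GENCODE 42 exon bases are shared between Sirt2 and Nfkbib, and no source used here states the strandedness of the libraries, so reads in those bases cannot be assigned to one gene.

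Sirt6 (chr10:81621787-81627792, minus strand) starts 28 bases from Ankrd24 on the plus strand. Both fell. Ankrd24 had 3.64 ± 0.843 CPM in A485 and 6.82 ± 1.32 CPM in control (SD, n = 4 each; log2 fold change -0.9 ± 0.26, SE; edgeR adjusted p = 0.0124), a call that was lost under total-count scaling (-0.61, edgeR adjusted p = 0.0798) and without control replicate 2 (-0.74, edgeR adjusted p = 0.0525). On the other side, 20601 bases away, Tle6 rose by a log2 fold change of 2.41 ± 0.36 (SE, with an edgeR adjusted p of 0.000362).

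Sirt3 (chr7:140863663-140882309, minus strand) is 84 bases from the proteasome gene Psmd13 on the plus strand and overlaps the end of Ric8a, a chaperone gene of G protein subunits. Of its 5973 exon bases in GENCODE, 342 are shared with Psmd13 and 418 with Ric8a. Neither neighbour passed, with log2 fold changes of -0.26 ± 0.13 for Psmd13 and 0.075 ± 0.14 for Ric8a (SE; edgeR adjusted p = 0.111 and 0.681). Psmd13 had 260 ± 29.6 CPM in A485 and 311 ± 27.7 CPM in control, far above Sirt3, so the share of Sirt3 counts that came from shared bases cannot be read from these files.

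Around Sirt7 (chr11:120618371-120625014, minus strand), Pcyt2, a gene of phosphatidylethanolamine synthesis, fell with a log2 fold change of -1.2 ± 0.19 (SE, with an edgeR adjusted p of 0.000469), and Mafg, whose exons share 124 bases with those of Sirt7 in GENCODE, had 0.068 ± 0.14 (SE; edgeR adjusted p = 0.692). Near Sirt1 (chr10:63319005-63339035, minus strand), Dnajc12 rose by a log2 fold change of 1.24 ± 0.22 (SE, with an edgeR adjusted p of 0.00103) and Herc4 had -0.29 ± 0.14 (SE; edgeR adjusted p = 0.109). Sirt1 shares 65 exon bases with the antisense gene Gm16145. Beside Sirt4 (chr5:115478006-115490264, minus strand), Pla2g1b rose by a log2 fold change of 3.34 ± 0.49 (SE, with an edgeR adjusted p of 0.000316). Pxn, on its other side, had -1.01 ± 0.39 (SE; edgeR adjusted p = 0.0477), a call lost when any single library except A485 replicate 4 was left out. Nol7, 3172 bases from Sirt5 (chr13:43365389-43395203, plus strand), fell with a log2 fold change of -0.7 ± 0.12 (SE, with an edgeR adjusted p of 0.000648), and Gfod1 was not tested at under 1 CPM. Estimated counts of Sirt4 and Sirt5 were not whole in any of the 8 libraries, while those of the other 5 members were whole in all 8.

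**Figure D4:**
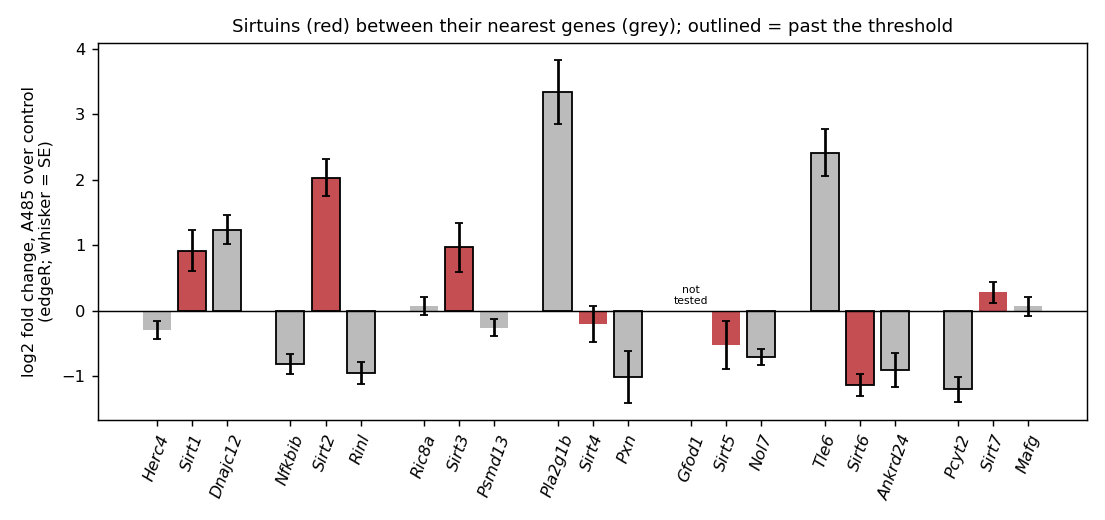
Log2 fold change of A485 over control (y axis, whisker SE) for each sirtuin in red between its nearest gene at lower and at higher coordinates in grey. Bars outlined in black passed the threshold. Sirt2 at 2.03 stands between Nfkbib at -0.81 and Rinl at -0.95.

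The bases before the annotated start are shown for Sirt1 and Sirt2, called members whose window holds a long stretch free of exons, with the motif letters that were searched in capitals. These motifs were chosen after the promoters had been read, and both strands were searched. Sirt1 (chr10:63339051-63339285, minus strand, ending 15 bases before the start, RefSeq, GRCm38.p6) is shown for its GC boxes (GGGCGG) and E-boxes (CACGTG), and Sirt2 (chr7:28766645-28766734, plus strand, ending 17 bases before the start) for the region it shares with Nfkbib, in which ACTACAA, a part of the ZNF143 element, stands on the other strand.
Sirt1: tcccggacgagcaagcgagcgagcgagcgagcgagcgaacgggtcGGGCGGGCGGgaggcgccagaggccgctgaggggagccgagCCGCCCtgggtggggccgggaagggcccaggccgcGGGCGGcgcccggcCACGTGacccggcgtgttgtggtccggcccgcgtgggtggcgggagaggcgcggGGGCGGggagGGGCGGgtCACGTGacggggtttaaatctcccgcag
Sirt2: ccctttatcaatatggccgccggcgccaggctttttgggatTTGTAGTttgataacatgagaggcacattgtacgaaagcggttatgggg
Motifs were counted in the 250 bases before the start that the RefSeq promoter table gives for each gene. For Sirt4, Sirt5 and Sirt6 that start lies inside the gene as placed above, so their windows lie wholly or in part within the gene, with 216, 39 and 231 of 250 bases in exons. The windows of Sirt3 and Sirt7 lie in exons throughout. That of Sirt2 lies in part within Nfkbib and has 156 of 250 bases in exons of Nfkbib or Sirt2. The window of Sirt1 held 6 GC boxes and 2 E-boxes, which 33% and 6.04% of 27025 promoters held at least once. The 250 bases of Sirt1 also held 39 CpG pairs, against a median of 6, and 1.52% of promoters held as many. The other members held 12 to 21. CGCATGCG, the core of the NRF1 element, found in the windows of Sirt6 and Sirt7, occurred in 1.58% of promoters, and ACTACAA, found in those of Sirt2 and Sirt4, in 2.97%. The ETS letters CCGGAAG were found in the windows of Sirt3, Sirt6 and Sirt7 and in 7.07% of promoters. CCAAT was found in those of Sirt2 and Sirt5 and in 34.5%. The cyclic AMP element TGACGTCA was found in no member's window and in 1.6% of promoters. A match describes the letters and is no evidence of binding.

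Sirtuins depend on NAD+, and a list of genes of its synthesis and salvage moved in both directions. The list also holds genes of NAD+ transport and conversion, such as Slc25a51, Nadk2, Nnt and Nudt12. Of its 16 tested genes, 5 rose, 3 fell and 8 did not pass (31.2% and 18.8%, against 29.7% and 25% of all genes), with a median log2 fold change of 0.29. Pnp, a nucleoside phosphorylase, fell with 28.7 ± 8 CPM in A485 and 67.1 ± 2.74 CPM in control (SD, n = 4 each; log2 fold change -1.22 ± 0.2, SE). Afmid, of the kynurenine route, had -0.71 ± 0.19 (SE), a call lost under total-count scaling, and Nudt12 had -0.68 ± 0.24 (SE). Nadk2, the mitochondrial NAD kinase, rose with 2.0 ± 0.456 CPM in A485 and 0.613 ± 0.22 CPM in control (SD, n = 4 each). Slc25a51, the mitochondrial NAD+ carrier, rose by a log2 fold change of 0.55 ± 0.17 (SE), as did Nmnat3 and Nnt, and these 3 and Nudt12 were named after their values were seen. Qprt, which joins the kynurenine route to NAD+, had 159 counts over the A485 group and 1 over the control group, a ratio of 133 with a 95% counting interval of 23.5 to 5279. Nampt, the rate-limiting enzyme of salvage from nicotinamide, had 33.2 ± 6.26 CPM in A485 and 24.6 ± 2.15 CPM in control (SD, n = 4 each; log2 fold change 0.43 ± 0.17, SE; edgeR adjusted p = 0.0538), and it passed in 5 alternatives, among them without A485 replicate 1. Nmnat1, the nuclear enzyme of the last step, had 0.31 ± 0.24 (SE; edgeR adjusted p = 0.3). The number that rose was 2 or 3 without any one control replicate, 3 without A485 replicate 3 and 2 with a filter at 5 CPM. Nmnat3, Qprt, Nadk2 and Nnt were too low for that filter and were not tested there. The number that fell was 5 without A485 replicate 3 and 1 under total-count scaling.

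Of 14 tested genes of other enzymes that consume NAD+, 5 rose and 4 fell (35.7% and 28.6%, near the 29.7% and 25% of all genes; median log2 fold change 0.13). Sarm1, an NAD+ hydrolase known from axon degeneration, fell with 6.33 ± 1.2 CPM in A485 and 35.5 ± 3.62 CPM in control (SD, n = 4 each; log2 fold change -2.48 ± 0.18, SE; edgeR adjusted p = 1.16e-05). Parp4 fell with a log2 fold change of -2.09 ± 0.2 and Parp1, the polymerase that answers to DNA breaks, with -1.45 ± 0.14 (SE), while Tnks2, a tankyrase, rose with 1.3 ± 0.18 (SE). Parp11 also fell, and Parp6, Parp9, Parp12 and Tiparp also rose, all named after their values were seen. Cd38, an NAD+ glycohydrolase, did not pass (2.05 ± 0.84, SE; edgeR adjusted p = 0.0595, at 1.28 CPM in A485 and 0.308 CPM in control). The number that rose was 3 without A485 replicate 3, control replicate 3 or A485 replicates 3 and 4, 3 with a replicate block, and 2 with a filter at 5 CPM. Parp9 and Parp12 were too low for that filter and were not tested there.

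Among 18 regulators and partners of SIRT1, 6 rose, 5 fell and 7 did not pass (33.3% higher and 27.8% lower, near the 29.7% and 25% of all genes; median log2 fold change 0.36). Rps19bp1, encoding the activator AROS, fell with 60.5 ± 11.2 CPM in A485 and 109 ± 4.55 CPM in control (SD, n = 4 each; log2 fold change -0.85 ± 0.15, SE; edgeR adjusted p = 0.000965). Ccar2, encoding the inhibitor DBC1, had 0.59 ± 0.41 (SE; edgeR adjusted p = 0.241). Dyrk3, a kinase that phosphorylates SIRT1, fell with -1.29 ± 0.14, and Ctbp1, a corepressor, and Mdm2, the ubiquitin ligase of p53, rose with 1.54 ± 0.21 and 2.13 ± 0.27 (SE). Prkaa1, Prkaa2 and Skp2 were the others that fell, and E2f1, Elavl1, Setd7 and Dyrk1a the others that rose, all named after their values were seen.

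Nuclear and cytosolic proteins that sirtuins are known to deacylate were encoded by 33 tested genes, of which 11 rose and 9 fell (33.3% and 27.3%, near the 29.7% and 25% of all genes; median log2 fold change -0.052). With a filter at 5 CPM, for which Rb1 was too low, 7 rose. G6pdx, a SIRT2 substrate that feeds the pentose phosphate pathway, rose with 286 ± 99.2 CPM in A485 and 39.6 ± 9.41 CPM in control (SD, n = 4 each; log2 fold change 2.85 ± 0.28, SE; edgeR adjusted p = 4.22e-05). Rb1 and Notch1 rose with 3.61 ± 0.52 and 1.92 ± 0.28 (SE). Apex1, a base excision repair endonuclease, fell with -2.11 ± 0.31, and Trp53, the gene of p53, with -0.68 ± 0.17 (SE). Hdac6, a second deacetylase of alpha-tubulin and a partner of SIRT2, rose like Sirt2, with 23.3 ± 7.85 CPM in A485 and 7.62 ± 0.516 CPM in control (SD, n = 4 each).

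Genes of mitochondrial sirtuin substrates numbered 32 tested, of which 7 rose and 9 fell (21.9% and 28.1%, against 29.7% and 25% of all genes; median log2 fold change -0.16). Sod2, the mitochondrial superoxide dismutase that SIRT3 activates, fell with 323 ± 108 CPM in A485 and 780 ± 8.18 CPM in control (SD, n = 4 each; log2 fold change -1.27 ± 0.21, SE; edgeR adjusted p = 0.000585). Idh2, another SIRT3 substrate, rose with 182 ± 29.6 CPM in A485 and 121 ± 7.58 CPM in control (SD, n = 4 each; 0.59 ± 0.14, SE). Acadm, of fatty acid oxidation, and Slc25a5, the adenine nucleotide carrier, fell with -1.94 ± 0.17 and -1.59 ± 0.14 (SE). Aldh2 rose with 1.86 ± 0.23, and Mlycd, the malonyl-CoA decarboxylase that SIRT4 acts on, with 2.57 ± 0.35 (SE). Under total-count scaling 12 rose, and without A485 replicates 3 and 4 14 fell.

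RNA polymerase I subunits and nucleolar partners of SIRT7 were lower almost throughout, while Sirt7 itself did not pass. Of 27 tested, 21 fell (77.8%, against 25% of all genes), 1 rose and 5 did not pass, with a median log2 fold change of -0.79. Rrp9, a component of the U3 particle and a SIRT7 substrate, fell with 42 ± 11.6 CPM in A485 and 154 ± 15.4 CPM in control (SD, n = 4 each; log2 fold change -1.87 ± 0.2, SE; edgeR adjusted p = 5.6e-05). The polymerase subunit genes Twistnb and Cd3eap fell with -1.96 ± 0.23 and -1.31 ± 0.17, and Taf1a, of the promoter selectivity factor, with -1.24 ± 0.18 (SE). The member that rose was Elk4, a transcription factor that recruits SIRT7 to chromatin, and Ubtf, Taf1d, Rrn3, Baz2a and Gnl3 did not pass, all named after their values were seen. Elk4 did not pass without A485 replicate 3, control replicate 2 or control replicate 3, without A485 replicates 3 and 4 and with a replicate block. With a filter at 5 CPM it was too low to be tested.

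In mouse cells SIRT6 is known to repress glycolytic genes that are targets of HIF1A. Of 9 such genes tested, 8 rose (88.9%, against 29.7% of all genes) and Pfkm, named after its values were seen, did not pass (1.01 ± 0.41, SE; edgeR adjusted p = 0.0584). The median log2 fold change was 3.24. Pfkl, a phosphofructokinase gene, rose with 165 ± 46.3 CPM in A485 and 15.1 ± 4 CPM in control, Pgk1, phosphoglycerate kinase, with 575 ± 189 CPM in A485 and 61 ± 8.73 CPM in control, and Slc2a1, a glucose transporter, with 120 ± 57.1 CPM in A485 and 15.2 ± 1.27 CPM in control (SD, n = 4 each). Ldha had a log2 fold change of 3.99 ± 0.23 (SE, with an edgeR adjusted p of 5.61e-06). This list was drawn up with the rise of Ldha already known. Hif1a, named after its values were seen, also rose (log2 fold change 1.09 ± 0.29, SE, with an edgeR adjusted p of 0.00857). Whether the change of Sirt6 or of Hif1a has a part in the rise of these genes was not tested.

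The other deacetylases and the acetyltransferases were set beside the sirtuins. Of 9 zinc-dependent histone deacetylase genes tested, Hdac3, Hdac6 and Hdac10 rose (log2 fold changes 1.11 ± 0.19, 1.62 ± 0.25 and 1.4 ± 0.38, SE) and the other six did not pass, so that 33.3% rose, near the 29.7% of all genes. Hdac1 had 504 ± 108 CPM in A485 and 650 ± 95.7 CPM in control (SD, n = 4 each; -0.37 ± 0.18, SE; edgeR adjusted p = 0.107) and passed as lower without A485 replicate 1 (-0.49, edgeR adjusted p = 0.0299). Of 20 lysine acetyltransferase genes 8 rose and 5 fell (40% and 25%, against 29.7% and 25% of all genes). The targets of the inhibitor, Ep300 and Crebbp, rose with 1.17 ± 0.36 and 0.75 ± 0.2, as did Ncoa1 and Ncoa3 with 2.21 ± 0.28 and 0.89 ± 0.17, whereas Kat7 and Kat8 fell, each with -0.73 (SE 0.12 and 0.14). Ep300 did not pass when A485 replicate 2 or control replicate 3 or 4 was left out (edgeR adjusted p of 0.0598 to 0.0609), nor without A485 replicates 1 and 2 (edgeR adjusted p = 0.122).

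**Figure D5:**
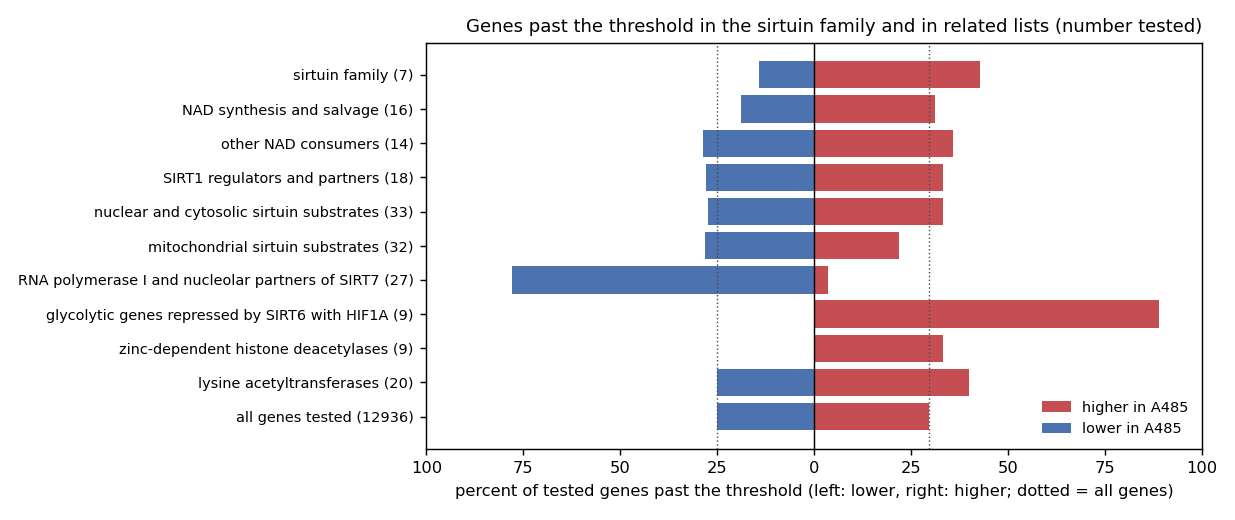
Percent of tested genes past the threshold (x axis), higher in A485 to the right and lower in A485 to the left, for the sirtuins, 9 related lists and all genes tested, with the number tested in brackets and dotted lines at 29.7% and 25% for all genes. The lists that stand furthest from these lines are the nucleolar partners of SIRT7 (77.8% lower) and the glycolytic genes (88.9% higher).

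For each sirtuin that passed, the genes most alike were taken as those with the smallest root-mean-square difference in log2 CPM, centred on the mean over the 8 libraries, among 7090 genes with an average log2 CPM of at least 3. Nearest to Sirt2 were Tcn2, encoding the vitamin B12 carrier transcobalamin, at 0.11, Ap3s1, an adaptor subunit, at 0.12 and March2, a ubiquitin ligase gene, at 0.14. Tcn2 had 66.1 ± 18 CPM in A485 and 18.2 ± 5.34 CPM in control (SD, n = 4 each). Nearest to Sirt6 were Bach1, a repressor of haem oxygenase, at 0.11, Akirin1 at 0.13 and Zfp637 at 0.14. Akirin1 had 24.4 ± 3.37 CPM in A485 and 56.4 ± 5.25 CPM in control (SD, n = 4 each). The nearest genes of Sirt1 (AU022751, Rcn3 and Iars2, at 0.2 to 0.26) and of Sirt3 (Adprm, Stk17b and Npat, at 0.23 to 0.24) were less close than those of Sirt2 and Sirt6. Sirt1 rested on 72 to 312 counts per library and Sirt3 on 53 to 266, against 213 to 2207 for Sirt2 and 832 to 2556 for Sirt6. Both also lay below the average log2 CPM of 3 asked of the candidates. The part of counting noise in this was not tested. Of these 12 genes, Rcn3 and Stk17b did not pass the threshold (edgeR adjusted p = 0.0935 and 0.08). The 12 were chosen for likeness to called sirtuins over both groups, so the calls of the others follow largely from that choice.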

How the data were processed

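Per the submitters' processing notes, the build was GRCm38.p6 and the tools were RSEM 1.2.28, HISAT2 2.2.1 and DESeq2 1.40.2. Per the file headers, the authors deposited for each of 18257 genes and 8 libraries an estimated count (18.2% of values not whole), FPKM, TPM and a normalized count (a signal, the count divided by 1 factor per library), with their log2 fold change and DESeq2 p-value and q-value. FPKM and TPM entered no test, and the normalized count was not used.

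Estimated counts were rounded and tested in R 4.3.3 with edgeR 4.0.16 (TMM factors, filterByExpr, robust quasi-likelihood fit, group as the only term), adjusted by Benjamini-Hochberg over 12936 genes at 0.05. SE is the log2 fold change over the square root of F. CPM uses TMM-scaled library sizes. Tables and figures were made in Python 3.11.15. The code was tested on simulated data. Alternatives were DESeq2 1.42.0, limma-voom (limma 3.58.1), RLE, upper-quartile and total-count scaling, a non-robust fit, no filter, 5 CPM in 4 libraries, a replicate block, and leaving out libraries.

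The members, 9 related lists and 7 marker lists were chosen with earlier results of these data known. Named genes are the 7 members, at most 4 called genes per list by lowest p, 10 preset genes, nearest neighbours and the 3 genes most alike. All replicate pairs differed beyond sampling noise, with a chi-square over its degrees of freedom of 64.27 to 224.9 within A485 and 19.71 to 34.91 within control. Counts cannot tell PCR copies from separate molecules, so the counting interval of Qprt covers counting error only. Exon overlaps come from GENCODE vM21.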

Additional observations from a re-analysis of the deposited data

Results flagged for a closer look

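Among the sirtuins, 0 of 14 groups of 4 libraries held a library set far apart from the other three. Of 154 groups examined over the members, the preset and lowest-p genes of the lists, the nearest neighbours and the genes most alike, 5 did. By chance about 1 in 20 would. Other genes, named after their values were seen, were not examined. Ncoa3 had 201 CPM in A485 library 4 and 128 to 131 CPM in the other A485 libraries. Notch1 had 27.7 CPM in A485 library 3 and 15.7 to 17.5 CPM in the other A485 libraries. Bach1, one of the genes most like Sirt6, had 5.17 CPM in A485 library 4, against 8.19 to 8.7 CPM in the other A485 libraries. Crebbp had 11.3 CPM in control library 4 and 6.77 to 7.41 CPM in the other control libraries. Qprt had 0.0451 CPM in control library 2, which is its single control count, and 0 in the other control libraries.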

How the results depend on the processing

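Sirt2 and Sirt6 passed in the same direction in all 19 alternatives. The number of sirtuins that rose was 1 to 2 when single libraries were left out (3 with all), and the number that fell 1 to 2 (1 with all), with 2 also without A485 replicates 1 and 2. With single libraries left out the log2 fold changes ran from 0.66 to 1.15 for Sirt1, 0.66 to 1.21 for Sirt3 and -0.97 to -0.27 for Sirt5. Without A485 replicates 1 and 2, Sirt1 had 0.56, Sirt5 -1.26 and Sirt7 0.44, and without A485 replicates 3 and 4 Sirt3 had 0.43 and Sirt4 0.12, the opposite sign to -0.2 with all libraries. Sirt3 also lost its call with RLE factors (0.94, edgeR adjusted p = 0.0521), limma-voom (0.87, limma adjusted p = 0.0998), no filter (0.9, edgeR adjusted p = 0.0611) and a replicate block (0.86, edgeR adjusted p = 0.123), and was not tested at 5 CPM. Under total-count scaling Sirt4 had 0.077 and Sirt7 0.58, where the median of all genes was 0.37. The cause was not tested. With the 5 CPM filter 2526 genes were higher, because 8194 genes were tested. Same-numbered libraries did not clearly deviate together (correlations of 0.0051, 0.0137, 0.104 and 0.0672). No pairing by number was thus visible, but this cannot tell whether same-numbered pools shared a litter or culture day. With the block 3508 genes were higher and 3163 lower, and Sirt3 was the one sirtuin whose call differed. Uncalled neighbours changed sign, Herc4 to 0.004 and Psmd13 to 0.034 under total-count scaling and Ric8a to -0.0056 without control replicate 3 (-0.0056 to 0.11 with single libraries left out), as did Nmnat1 to -0.23 without A485 replicates 1 and 2. Sirt1, Sirt3 and Sirt5 rest on 53 to 354 counts per library.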
